A study of Oryza sativa Japonica Group with 20 samples.

Results

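PLT5, a transcription factor of the PLETHORA family, was set against H3K27me3, the histone mark of Polycomb repression, along the chromosomes of wild-type rice root tips. The comparison rests on 4 of the 20 samples of the series, 2 CUT&Tag libraries made with an antibody against PLT5 and 2 made with an antibody against H3K27me3. PLT5 sites were the merged peaks touched by both PLT5 libraries, which gave 8781 sites out of 14432 merged peaks. H3K27me3 domains were formed in the same way and came to 21044 out of 25890 merged peaks. A site was on a domain when the pair shared at least 1 bp.

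CUT&Tag cuts and tags chromatin in nuclei wherever an antibody has bound, so that a peak marks a stretch with more tags than its surroundings. The plt345 plants are labelled as a triple mutant in PLT3, PLT4 and PLT5, with no allele given, and wild-type (WT) plants were of the cultivar ZH11. All nuclei came from root tips of about 0.8 cm, taken 7 days after germination, from seedlings that received no treatment. The 2 H3K27me3 libraries of plt345 and the WT libraries for H3K4me3 and EMF2b are used below as further readouts of the same places. The IgG samples and the PLT5 samples of plt345 were not analysed here, so the PLT5 peaks have no mutant or mock control. The labels do not say whether replicates are separate plantings, so the spread between them may be technical.

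PLETHORA proteins are AP2-type transcription factors that keep root meristem cells dividing and undifferentiated, as known best from Arabidopsis. H3K27me3 is laid down by Polycomb repressive complex 2 (PRC2), in which EMF2b is one of the subunits, and in plants it usually covers stretches of genes that are kept silent. H3K4me3 marks the starts of active genes, and a place that carries both marks is called bivalent. Peaks of different antibodies were measured in separate batches of nuclei of a mixed tissue, so shared positions do not show that PLT5 and the mark were on the same chromosome copy or in the same cell.

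The PLT5 libraries held 12590 and 10822 peaks, of which 70.4% and 82.2% touched a peak of the other. The WT H3K27me3 libraries held 23957 and 24185 peaks, with 89.8% and 90.0% touching one of the other. Read depth is unknown because the lists hold no counts, and the strength of a peak is given by the authors' fold over the modelled background and the −log10 q of their peak caller. Sites had a median width of 653 bp and ranged over 292 to 5743 bp. Domains had a median width of 1362 bp, ranged over 282 to 7540 bp and covered 33.6 Mb. The PLT5 summits of the 2 libraries lay a median of 62 bp apart, and 63.9% were within 100 bp of each other. Positions are those of the deposited lists, for which the labels name no genome build, and no site was assigned to a gene.

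A large minority of PLT5 sites lay on H3K27me3. Of the 8781 sites 4104 (46.7%) were on a domain and 4677 (53.3%) were not. Taken library by library, 46.6% and 47.4% of the peaks of PLT5 replicate 1 touched a peak of H3K27me3 replicates 1 and 2, and 48.5% and 49.2% of those of PLT5 replicate 2. The 4 pairings therefore differed by less than 3 percentage points. Sites on domains were mostly enclosed by them. The median site on a domain had 96.1% of its bases under the domain, 1705 sites (41.5%) were fully inside, and 2 sites touched 2 domains. Summits fell inside a domain for 3960 sites (45.1%) in replicate 1 and 3965 sites (45.2%) in replicate 2.

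EMF2b regions, the most similar set among the other antibodies, lay on domains at 41.4%, and H3K4me3 regions at 20.4%. By library the PLT5 peaks were at 42.7% and 44.5%, the EMF2b peaks at 39.4% and 39.7% and the H3K4me3 peaks at 20.4% and 20.3%. Both PLT5 libraries were above both libraries of each of the others. A two-sided exact permutation over libraries returned p = 0.33 for each of these 2 comparisons, before and after Benjamini-Hochberg adjustment. With 2 libraries on each side this test can give no smaller p, so neither difference can pass 0.05 in it. The lists also differ in length, at 12590 and 10822 peaks for PLT5, 15486 and 14851 for EMF2b and 25762 and 25165 for H3K4me3. Within each antibody the share on domains varied with peak strength, so these levels are not like for like. What list length contributes was not tested.

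Sites on domains were stronger than the other sites. Their median −log10 q was 11.6 in replicate 1 and 10.3 in replicate 2, against 10.2 and 9.21 at the other sites. The median fold was 4.47 and 4.62 on domains, against 4.24 and 4.40 off them. In the upper tail the gap was wider, with a 90th percentile of −log10 q of 22.7 and 20.4 on domains and of 17.7 and 15.7 elsewhere. EMF2b of both WT libraries was present at 80.4% of the sites on domains and at 73.5% of the other sites, whereas H3K4me3 was present at 64.2% on domains and 67.5% elsewhere. These are counts over sites of the same libraries and were not tested.

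Wider domains did not hold a PLT5 site more often than narrow ones. Of the 21044 domains 4005 (19.0%) held a site. The share was 24.2% of the 1477 domains under 500 bp and 22.8% of the 5912 domains of 500 to 1000 bp. Classes include their lower limit and not their upper one. The share was 16.5% of the 7370 domains of 1000 to 2000 bp, 17.2% of the 5833 domains of 2000 to 4000 bp and 17.3% of the 452 domains of 4000 to 8000 bp. A domain more than 8 times as wide was thus no more likely to hold a site. In summits per 100 domains, the narrowest class had 23.2 and 23.0 in replicates 1 and 2 and the widest class 18.1 and 18.6.

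Per length of domain the density fell steeply. Domains under 500 bp held 551 and 547 summits per Mb in replicates 1 and 2, those of 500 to 1000 bp 299 and 300.3, and those of 1000 to 2000 bp 113 in both libraries. Domains of 2000 to 4000 bp held 64.5 and 64.2 per Mb and domains of 4000 to 8000 bp 40.6 and 41.5. The narrowest domains made up 1.85% of all domain bases but held 358 of the sites, while domains of 2000 to 4000 bp made up 47.2% of the bases and held 1062. A site of median width is wider than any domain of the narrowest class.

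**Figure D1:**
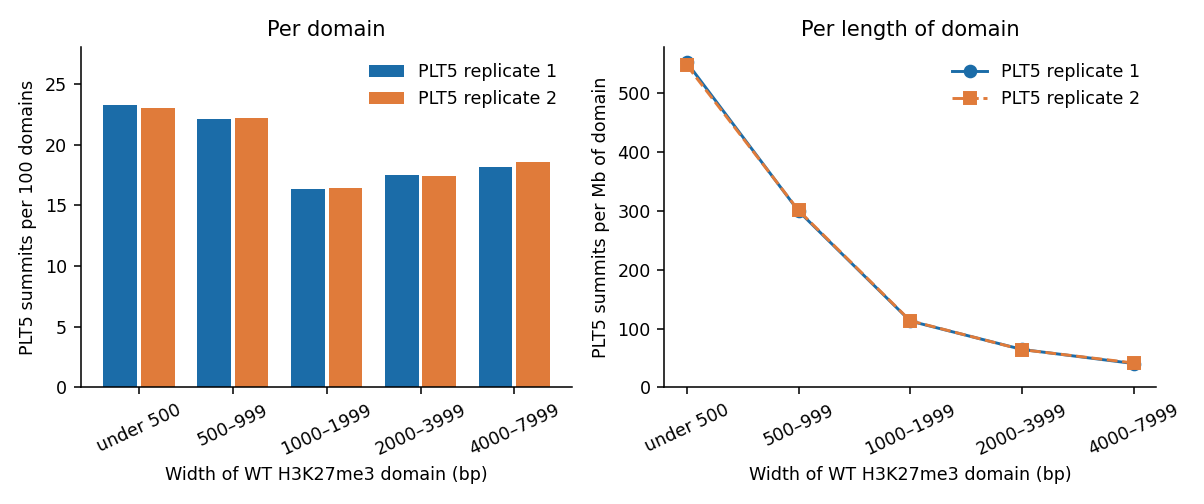
PLT5 summits in WT H3K27me3 domains by domain width, per 100 domains (left, bars) and per Mb of domain (right, lines), for each PLT5 library. Counts per domain stay between 16.4 and 23.2 per 100 domains, while the density per Mb falls from 551 to 40.6 in replicate 1.

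Domains with more than 1 site were rare. A single site was found in 3907 domains (97.6% of those with any), 95 domains held 2 sites and 3 held 3 sites, the most of any domain. More than 1 site was seen in none of the domains under 500 bp, in 0.0846% of those of 500 to 1000 bp, 0.393% of those of 1000 to 2000 bp, 0.977% of those of 2000 to 4000 bp and 1.55% of those of 4000 to 8000 bp. In this respect wide domains did differ from narrow ones. Neighbouring summits within such a domain were a median of 1266 bp apart in replicate 1 and 1185 bp in replicate 2, and the closest were 570 and 532 bp apart.

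The 3 domains with 3 sites differed in strength. The domain of chromosome 3 from 13642718 to 13645318 was 2601 bp wide and carried the strongest sites, with a −log10 q of 83.7 and 77.3 at the first, 69.8 and 58.8 at the second and 133 and 126 at the third in replicates 1 and 2. H3K27me3 itself was strong there, with a fold of 4.37 and 4.51. The domain of chromosome 6 from 3808012 to 3811035 (3024 bp) held 3 weaker sites, with values between 6.93 and 15.8. H3K27me3 peaks covered 1687 and 2085 bp of it in the 2 WT libraries, so that it was pieced together from shorter peaks. On chromosome 1 the domain that starts at 33516414 and ends at 33522378 was the widest of the 3 at 5965 bp. Its H3K27me3 fold was 1.73 and 1.74, and the PLT5 fold at its 3 sites was between 1.51 and 2.36, low for a PLT5 site.

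The widest 7 of the 95 domains with 2 sites were 3800 to 6311 bp wide. EMF2b was present in all of these 7 and of the 3 domains with 3 sites, and H3K4me3 in all but the domain of chromosome 8 from 800991 to 805429. Over all domains with a site the shares were 81.8% for EMF2b and 67.1% for H3K4me3. Wide domains without a site were more common, at 374 of the 452 of at least 4000 bp. The widest domain of all, on chromosome 3 from 15777876 to 15785415 (7540 bp), had no PLT5 site, no H3K4me3 and no EMF2b, although H3K27me3 covered 6783 and 7442 bp of it. The next widest without a site, on chromosome 2 from 21840645 to 21847249 (6605 bp), also lacked both, whereas that of chromosome 7 from 1508708 to 1515030 (6323 bp) carried both.

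Domains with a site were marked by the other antibodies far more often than domains without one. H3K4me3 of both WT libraries touched 2686 (67.1%) of the 4005 domains with a site and 1961 (11.5%) of the 17039 without, against 22.1% of all domains. EMF2b touched 3275 (81.8%) with a site and 1786 (10.5%) without, against 24.0% of all. The contrast held in every width class: with a site, H3K4me3 was at 62.3% to 71.2% and EMF2b at 77.2% to 85.5%, and without one at 10.3% to 15.2% and 9.05% to 20.3%. Peaks of the active mark and of the PRC2 subunit were thus usual in domains with a site and uncommon in the others. They were also usual at PLT5 sites off domains, with H3K4me3 at 67.5% and EMF2b at 73.5% of those sites. The contrast is therefore not particular to PLT5 sites on H3K27me3. These counts over domains and sites of the same libraries were not tested.

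The fold of H3K27me3 was somewhat higher in narrow domains that held a site. Under 500 bp the median fold was 2.33 and 2.48 in H3K27me3 replicates 1 and 2 with a site, against 1.94 and 1.99 without. At 2000 to 4000 bp it was 2.32 and 2.37 with a site and 2.24 and 2.26 without, and at 4000 to 8000 bp 1.88 and 1.90 with a site and 1.87 and 1.89 without. The difference in fold was in the same direction in both libraries and in every one of the 5 width classes, and it was smallest in the widest domains. The −log10 q of H3K27me3 did not follow throughout: at 1000 to 2000 bp its median was 3.44 and 3.61 with a site, below the 3.704 and 3.64 without one. Over all domains it was 3.58 and 3.73 with a site and 3.704 and 3.66 without.

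In narrow domains the PLT5 site filled most of the H3K27me3 domain. Sites covered a median of 100% of the domains under 500 bp that held one, 87.0% of those of 500 to 1000 bp, 53.0% of those of 1000 to 2000 bp, 24.9% of those of 2000 to 4000 bp and 14.3% of those of 4000 to 8000 bp. At least 80% of the domain was under PLT5 in 322 of the 358 narrowest domains with a site, in 829 of the 1349 of the next class and in 21 of the 1003 of 2000 to 4000 bp. Over all widths this held for 1417 domains (35.4% of those with a site).

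The position of the summit turned round with domain width. Over all domains 55.8% and 56.4% of in-domain summits in replicates 1 and 2 lay in the central 50% of the domain, close to an even spread. Under 500 bp the central share was 83.1% and 85.9%, and at 500 to 1000 bp it was 70.1% in both libraries. It was 51.9% and 52.3% at 1000 to 2000 bp, 35.1% and 36.2% at 2000 to 4000 bp and 26.8% and 29.8% at 4000 to 8000 bp. Narrow domains were thus centred on the summit, and in wide ones the summit lay towards an edge. The widest class rests on 82 and 84 summits.

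The left and right sides of domains were used alike, with 50.3% and 50.1% of summits left of the centre in replicates 1 and 2. The lists carry no strand, so the side cannot be related to the direction of a gene. In domains of 4000 to 8000 bp 67.1% and 64.3% were on the left.

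**Figure D2:**
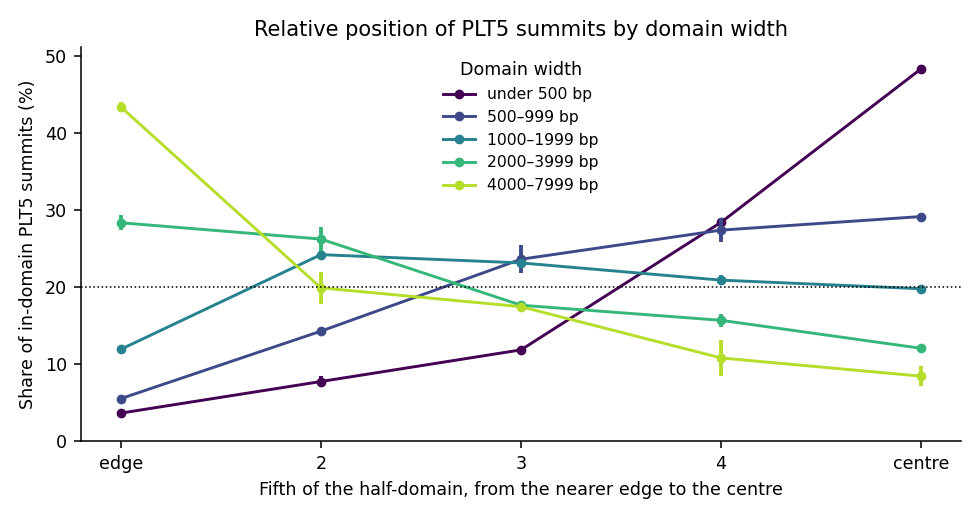
Share of in-domain PLT5 summits by relative position, with each domain folded at its centre and cut into 5 equal bands from the edge to the centre, by domain width; points are means of the 2 PLT5 libraries, vertical lines their range, and the dotted line the 20% of an even spread. In domains under 500 bp 47.8% and 48.8% of summits are in the central band, and in domains of 4000 to 8000 bp 42.7% and 44.0% are in the edge band.

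Measured in bp rather than as a proportion, the distance to the nearer edge grew with width, but less than an even spread would give in domains of 2000 bp or more. Its median was 156 and 155.5 bp for domains under 500 bp, 227 bp in both for 500 to 1000 bp, and 351 and 360 bp for 1000 to 2000 bp. In domains of 2000 to 4000 bp it was 466.5 and 479 bp, where an even spread would put it near 666 bp. In those of 4000 to 8000 bp it was 554.5 and 528 bp, against about 1075 bp for an even spread. Within 500 bp of an edge lay 53.1% and 51.5% of the summits in domains of 2000 to 4000 bp, a zone that holds 36.8% of their bases.

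Taking the 6285 domains of at least 2000 bp by themselves, summit density peaked a little inside the edge. It was 71.6 and 62.8 summits per Mb in the outermost 100 bp, 102 and 116 at 100 to 250 bp, and 95.1 and 84.6 at 250 to 500 bp. Further in it was 60.1 and 61.7 at 500 to 750 bp, 37.9 and 38.2 at 1000 to 1500 bp and 22.4 and 23.9 beyond 1500 bp. The interior of wide domains was therefore the part with the fewest summits, although it still held more per Mb than the sequence outside domains. Sites with H3K4me3 lay nearer the edge than sites without it in domains of 2000 to 4000 bp, at a median of 431 bp against 523 bp in replicate 1 and 466 bp against 507 bp in replicate 2. In domains of 4000 to 8000 bp the order was the other way round, at 618 and 539 bp with H3K4me3 against 503 and 500 bp without it.

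PLT5 summits were scarcest at 250 to 1000 bp outside domains. Over the 12 chromosomes the density was 118 summits per Mb inside domains and 14.2 outside in both libraries. In the first 250 bp outside an edge it was 10.8 and 9.81 per Mb, at 250 to 500 bp 3.71 and 4.71, and at 500 to 1000 bp 5.27 and 5.22. Within 1000 bp as a whole it was 6.39 and 6.36 per Mb, and at 1000 to 5000 bp 11.9 in both. It reached 19.2 per Mb in both libraries at 10000 to 20000 bp and was 10.4 in both beyond 50000 bp. A site whose summit is close outside an edge usually reaches into the domain and counts as on it. In these densities its summit is still counted outside, so that rule does not lower them.

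EMF2b showed the same shape, with 276 and 278 summits per Mb at 100 to 250 bp inside, 8.52 and 8.92 at 250 to 500 bp outside and 28.0 and 27.8 at 10000 to 20000 bp outside. H3K4me3 was less confined. Its density was 164 and 170 per Mb at 100 to 250 bp inside and 67.0 and 66.2 in the first 250 bp outside, where PLT5 had 10.8 and 9.81. The inside classes pool domains of all widths, and narrow domains lie wholly near an edge. The lists of the 3 antibodies differ in length, so shapes and not levels can be read side by side, and no test was made of these densities.

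**Figure D3:**
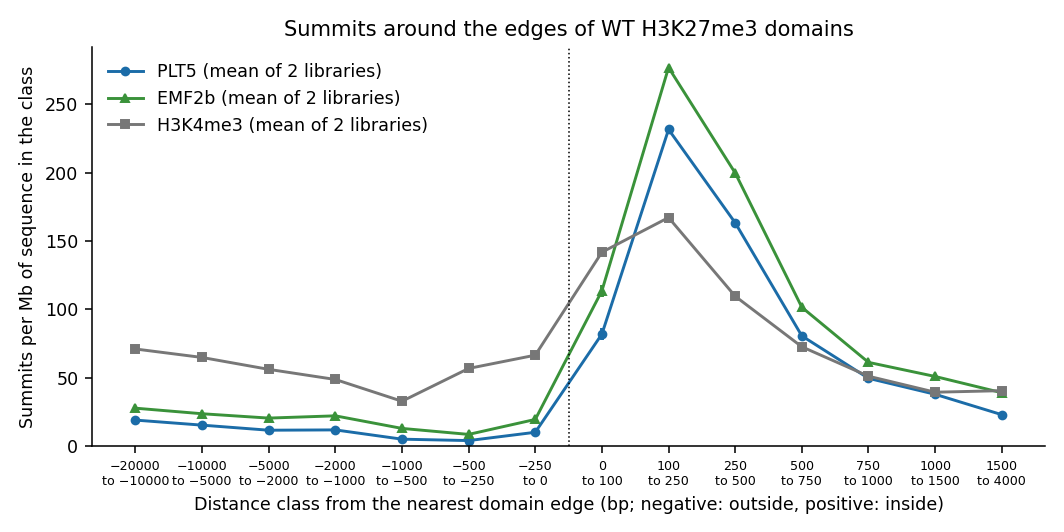
Summits of PLT5 sites, EMF2b regions and H3K4me3 regions per Mb of sequence by distance class from the nearest edge of a WT H3K27me3 domain (negative outside, positive inside, dotted line at the edge); points are means of 2 libraries and vertical lines their range. PLT5 is lowest at 250 to 500 bp outside (3.71 and 4.71 per Mb) and highest at 100 to 250 bp inside (229 and 234). The inside classes pool domains of all widths, and in domains of at least 2000 bp PLT5 is at 102 and 116 per Mb at 100 to 250 bp inside.

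Stronger PLT5 sites were more often on H3K27me3, and narrow domains made the difference. Sites were ranked by the mean −log10 q of both libraries and divided into deciles. The share on a domain was 37.5% in the weakest decile (median −log10 q 6.19), 41.5% in decile 5, 51.6% in decile 8, 53.3% in decile 9 and 68.9% in the strongest (median 22.6). With all peaks of each library ranked on their own, the weakest decile had 33.2% and 34.8% and the strongest 63.3% and 66.0% in replicates 1 and 2. Over sites the strongest decile was 31.4 percentage points above the weakest, and 17.4 points when sites were ranked by fold instead. Median site width was 563 bp in the weakest decile and 748.5 bp in the strongest. With both summits required inside the domain, a measure that does not use site width, the shares were 32.9% in the weakest and 68.6% in the strongest.

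Divided by the width of the domain they lay on, the deciles behaved differently. The share of sites on a domain of 1000 bp or wider was 25.8% in the weakest decile, 27.2% in the strongest and between 25.8% and 28.8% in all 10. On a domain under 1000 bp it was 11.7% in the weakest decile, 18.6% in decile 7, 26.3% in decile 9 and 41.7% in the strongest. Each library alone gave the same picture, with 25.3% in the weakest and 27.6% and 27.5% in the strongest decile for wide domains, and 7.86% and 9.51% in the weakest and 35.7% and 38.4% in the strongest for narrow ones. By −log10 q, the share on narrow H3K27me3 domains thus went up with strength and the share on wide ones was flat. Ranked by fold, the share on wide domains was 27.3% in the lowest decile and 22.7% in the highest, and that on narrow ones 14.4% and 36.4%. The width limit of 1000 bp was chosen after the values had been seen.

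**Figure D4:**
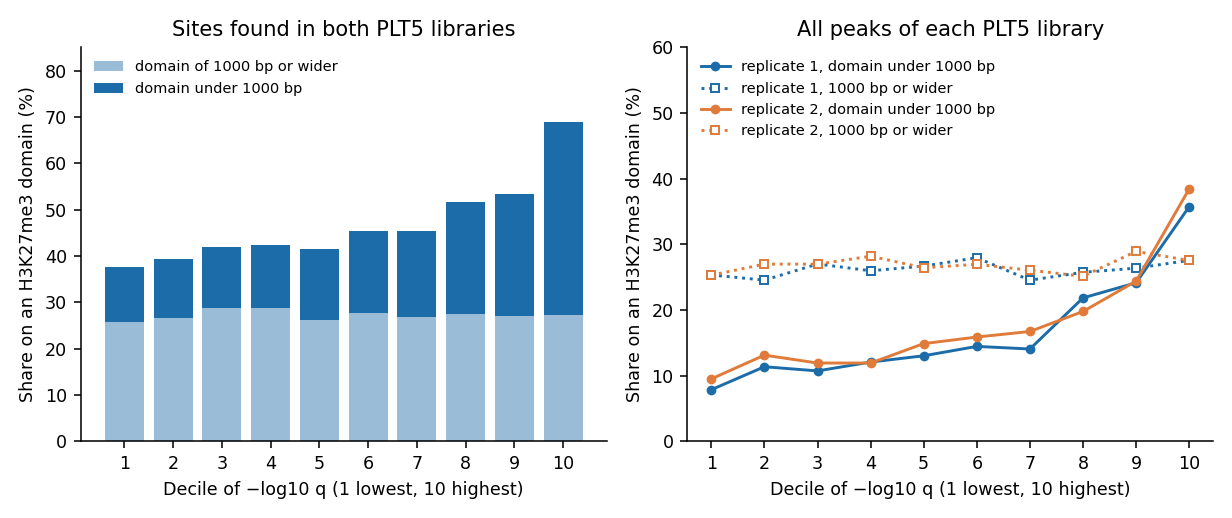
Share of PLT5 sites on a WT H3K27me3 domain by decile of −log10 q, divided by domain width, for sites of both libraries (left, stacked bars) and for all peaks of each library (right, lines). The part on domains of 1000 bp or wider stays between 25.8% and 28.8% of sites, and the part on narrower domains is 11.7% in decile 1 and 41.7% in decile 10.

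H3K4me3 and EMF2b also became more frequent with PLT5 strength. H3K4me3 was present at 47.1% of sites in the weakest decile and 87.4% in the strongest, and EMF2b at 58.0% and 96.7%. Among sites with H3K4me3 the share on H3K27me3 was 33.3% in the weakest decile and 69.4% in the strongest. Among those without it the share was 41.3% in the weakest and 65.8% in the strongest, where 111 sites remained. In deciles 1 to 9 sites without H3K4me3 were on H3K27me3 more often than sites with it, and in decile 10 they were so less often. For EMF2b regions ranked in the same manner, 60.5% of the strongest decile and 35.4% of the weakest lay on domains, and for H3K4me3 regions 16.4% and 29.4%.

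Among the 10 strongest sites on a domain, the domains were 442 to 1703 bp wide, and 5 were under 1000 bp. In the whole strongest decile 41.7% of sites were on a domain under 1000 bp and 27.2% on a wider one. All 10 had H3K4me3 and EMF2b of both WT libraries, against 87.4% and 96.7% of the strongest decile. The first, on chromosome 12 between 13349157 and 13349936, had a −log10 q of 206 and 190.0 in replicates 1 and 2, and it covered 98.0% of a domain of 747 bp. Its summits lay 361 and 360 bp from the nearer edge. On chromosome 8, the site between 12797706 and 12798237 reached 195 and 188 and covered the whole of a domain of 464 bp, with summits 228 and 226 bp from the edge. The third, on chromosome 10 between 14535072 and 14535781 with 196 and 186, lay at the end of a wider domain of 1671 bp. It covered 42.5% of that domain, and its summits were 302 and 315 bp from the edge. Of the 10, 6 were on chromosome 12, and 4 of those lay between 20461555 and 20578148. Chromosome 12 held 253 of the 4104 sites on domains.

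Sites away from domains were seldom close to one. The 4677 other sites were a median of 12509 bp from the nearest domain, with quartiles of 5046 and 26333 bp. Within 500 bp of a domain lay 1.05% of them, within 1000 bp 4.83%, within 5000 bp 24.9%, within 10000 bp 42.5% and within 50000 bp 91.6%. Measured from summits, the median was 12870 bp in replicate 1 and 12812 bp in replicate 2, and 9.56% and 9.54% lay within 2000 bp. For comparison, the bases outside domains were a median of 9213 bp from a domain, 19.7% of them within 2000 bp and 88.8% within 50000 bp. Other sites were thus farther from domains than the bases around them at short range and nearer at long range. At the shortest range this is partly set by definition, since a site sharing a base with a domain is not among them. The nearest summits were 203 and 194 bp from a domain in replicates 1 and 2, whereas single bases have no such limit.

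**Figure D5:**
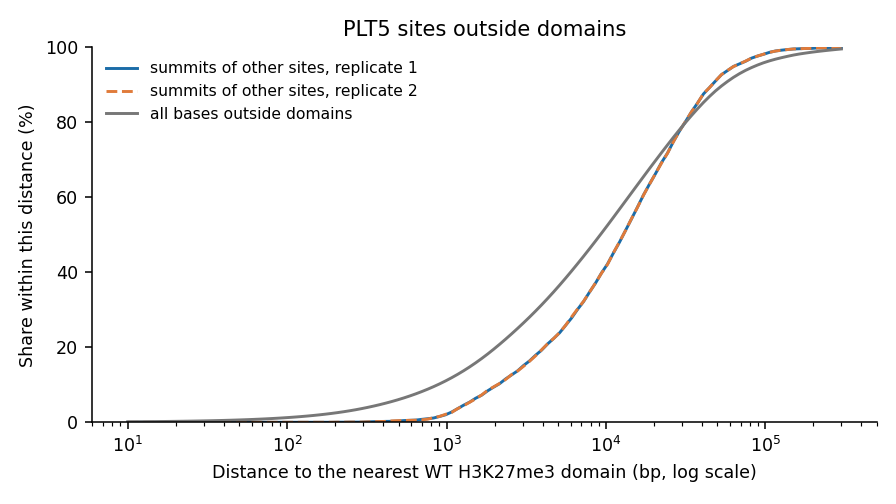
Cumulative share of PLT5 summits outside domains (1 line per library, other sites only) and of all bases outside domains by distance to the nearest WT H3K27me3 domain, on a log axis. The lines of the sites lie under that of the bases up to 10000 bp (41.5% of summits in both libraries against 52.0% of bases) and above it at 50000 bp (91.6% in both against 88.8%).

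Stronger sites off domains were farther from them. The median distance was 11228 bp in the weakest decile and 16100 bp in the strongest. Sites with H3K4me3 were at a median of 13056 bp and sites without it at 11379 bp, and sites with EMF2b were at 13459 bp and sites without it at 10082 bp. A domain on both sides within 5000 bp was found for 218 sites (4.66%) and within 1000 bp for 2. Few of these sites therefore lay in a short gap between neighbouring domains. The share of bases outside domains that lie in such gaps was not measured, so these counts have no background.

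Not all other sites were without H3K27me3. A peak of 1 of the 2 WT libraries touched 921 of the 4677 (19.7%), in 430 cases of replicate 1 and in 491 of replicate 2. Another 6 touched separate peaks of both libraries, and 3750 (80.2%) touched none. Sites with a peak in at least 1 library were a median of 7525 bp from the nearest domain, and those with none 14067 bp.

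The strongest sites at least 5000 bp from a domain were weaker than the strongest on one, and most had H3K27me3 in 1 library. The first, on chromosome 2 from 889459 to 890373, had a −log10 q of 52.0 and 54.7 and lay 51093 bp from a domain, with 288 bp of H3K27me3 in WT replicate 1 only. The second, on chromosome 2 from 27673181 to 27673575, had 47.8 and 39.02 and 293 bp of the mark in WT replicate 2 only. Of the 6 strongest, 4 had the mark in 1 WT library, against 19.7% of all sites off domains. All 6 had EMF2b, which was at 73.5% of all sites off domains and at 96.7% of the strongest decile of sites. The site of chromosome 4 from 21416237 to 21416951, with 43.5 and 40.2, had no H3K27me3 in WT but 439 and 463 bp in the plt345 libraries. The 3 sites farthest from a domain lay 401406 bp away on chromosome 2, 358562 bp on chromosome 12 and 322884 bp on chromosome 4. All 3 had H3K4me3 and EMF2b, against 67.5% and 73.5% of all sites off domains.

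Chromosomes differed in the share of sites on domains. It was lowest on chromosomes 3 (39.9% of 1199 sites) and 5 (40.2% of 712) and highest on chromosomes 9 (56.6% of 470) and 12 (56.1% of 451). With single H3K27me3 libraries the share was 44.2% and 45.4% on chromosome 3 and 60.4% and 61.1% on chromosome 9, so the gap between these chromosomes was larger than that between libraries. Domains covered 9.03% and 7.79% of the span of chromosomes 3 and 5, and 10.0% and 9.30% of that of chromosomes 9 and 12. Over the 12 chromosomes the share of sites on domains tended to rise with this coverage (rank correlation rho = 0.545), which was not tested. Domains with a site ran from 12.7% of those of chromosome 11 to 25.4% of those of chromosome 1. Sites were densest on chromosome 3, at 33.1 per Mb, and sparsest on chromosome 11, at 15.3 per Mb, whereas domains were densest on chromosome 9, at 65.0 per Mb, and chromosome 11, at 64.3 per Mb.

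The last comparison asked what became of the domains with a PLT5 site in plt345 roots, the triple mutant. H3K27me3 peaks covered 68.1 ± 0.558% of their bases in plt345 and 89.9 ± 1.11% in WT (SD, n = 2 each), a difference of −21.8 percentage points. In domains without a site they covered 71.4 ± 0.115% in plt345 and 90.6 ± 1.77% in WT, a difference of −19.2 points. All plt345 values lay below all WT values, and the exact permutation test gave p = 0.33 for both. Coverage with a site minus that without was −2.82 and −3.77 points in plt345 replicates 1 and 2 and −1.21 and −0.277 points in WT. This difference between the sets was tested over the 4 libraries and gave exact p = 0.33, again the smallest possible. The domains were defined in WT libraries, which makes WT coverage high by construction, and the plt345 lists were shorter, with 20841 and 20942 peaks. At like width the order was not constant. Under 500 bp the difference of plt345 and WT was −53.6 points with a site and −57.4 without, and at 500 to 1000 bp −30.0 and −32.8. At 1000 to 2000 bp it was −22.8 with a site and −19.6 without, and at 2000 to 4000 bp −17.2 and −14.5. At 4000 to 8000 bp it was −15.6 with a site and −15.9 without.

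Over all widths together, domains without any plt345 peak were about as frequent with a site as without. No peak of either plt345 library touched 451 (11.3%) of the domains with a site and 1961 (11.5%) of those without, against 11.5% of all domains. A missing peak need not be a loss of the mark, since the plt345 lists were shorter and depth is unknown. Between the 2 WT libraries, 89.8% and 90.0% of the peaks touched a peak of the other. Under 500 bp the absence of any plt345 peak was seen in 43.9% with a site and 48.8% without, and at 500 to 1000 bp in 14.8% and 21.5%. At 1000 to 2000 bp it was 6.82% with a site and 6.31% without, and at 2000 to 4000 bp 1.20% and 0.973%. Width was the stronger divider, though a wider domain can be touched more easily by length alone. Among domains under 500 bp with a site, 43.0% had a peak in plt345 replicate 1 and 43.0% in replicate 2, taken singly, against 37.5% and 37.4% of those without a site. For 500 to 1000 bp it was 74.1% and 73.2% with a site, and 68.2% and 68.6% without. At 1000 to 2000 bp the order was the other way round, at 88.1% and 88.6% with a site and 89.8% and 89.7% without, and at 2000 to 4000 bp all 4 values were between 97.8% and 98.4%.

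Within domains that held a site, the bases under PLT5 peaks were covered at 71.3 ± 0.484% in plt345 and 92.3 ± 0.0697% in WT (SD, n = 2 each). The other bases of the same domains were covered at 65.4 ± 0.619% in plt345 and 87.8 ± 2.10% in WT. The differences were −21.0 points under PLT5 and −22.4 points beside it, and the exact permutation p was 0.33 for each.

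Site by site, 3273 (79.8%) and 3258 (79.4%) of the 4104 sites on WT domains touched an H3K27me3 peak of plt345 replicates 1 and 2. In both plt345 libraries 2960 (72.1%) did, and in neither 533 (13.0%). Among the 4677 other sites a plt345 peak was found at 414 (8.85%) and 405 (8.66%), and in both libraries at 181 (3.87%). Among sites in domains under 500 bp 43.0% touched a peak in each plt345 library taken singly, and 29.9% in both at once. In domains of 2000 to 4000 bp it was 91.7% and 91.0% by library and 88.4% in both at once. By PLT5 strength the share was 74.8% and 71.5% in the weakest decile and 81.7% and 82.5% in the strongest. In deciles 2 to 10 it was between 75.7% and 82.5%, with no steady trend. Of the sites in the narrowest domains 32.4% belonged to the strongest decile.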

How the data were processed

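Peak lists of 14 CUT&Tag libraries were at hand; 10 were used (WT PLT5, H3K27me3, H3K4me3 and EMF2b, and plt345 H3K27me3, 2 each). The submitters' processing notes list MACS2 2.2.7.1, Bowtie2 2.4.4, Trim Galore 0.6.6 and deepTools 3.5.0 without roles. Control, duplicate handling and genome build are not stated in these notes or in the labels. The deposited lists give, per peak, start, end and, in narrow lists, summit offset in bp, a fold enrichment (a ratio to the library's modelled background) and a −log10 q, all as the authors' peak caller wrote them, with peaks called per library. A broad cutoff of 0.1 (H3K27me3) and a p cutoff of 1e-05 (narrow lists) stand in the peak names. Fold and −log10 q only describe and rank peaks within a list. Columns were read in the usual narrowPeak and broadPeak order, since the lists have no header.

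Peaks of the 2 libraries of an antibody were merged when they overlapped or touched, and regions touched by both were kept. For each site and library the peak of highest −log10 q gave its strength and summit. Presence of another mark means at least 1 bp from both of its libraries. The background of distances is every base outside domains between the outermost domains of each of the 12 chromosomes. PLT5 against EMF2b and H3K4me3, and plt345 against WT, were compared by exact two-sided permutation over libraries. The other shares within WT have no replicate test. The steps were tested on simulated lists with known answers (Python 3.11.15, pandas 2.3.3). Site and domain definitions, width classes and lists were chosen with earlier results of these data known.

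Named regions follow a fixed rule: the 10 domains with the most sites (ties by width, the wider first), the 6 widest without one, the 10 strongest sites on a domain, the 6 strongest at least 5000 bp away and the 3 farthest, all on the 12 chromosomes, of which those ranked first are described singly. Nearest genes are not given, since the lists name no build to match an annotation to.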

Additional observations from a re-analysis of the deposited data

How the results depend on the processing

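The share of sites on a domain (46.7%) was 44.4% with both summits inside, 49.1% with PLT5 peaks above the 25th percentile of −log10 q, 34.3% with H3K27me3 peaks above it, and 42.7% to 52.0% with any 1 library left out. Counting only domains of at least 1000 bp, chosen after seeing the data, it was 27.3%. The share of domains with a site (19.0%) was 21.3% when domains up to 1000 bp apart were joined, 14.8% with stronger PLT5 peaks, and 18.4% to 24.3% with 1 library left out. The central share of summits (56.1%, mean of both libraries) was 50.6% in joined domains, 56.9% with stronger PLT5 peaks, 53.9% to 55.6% with 1 library left out and 44.0% in domains of at least 1000 bp. The difference between the strongest and weakest decile (31.4 points) was 32.5 at 150 bp of overlap, 35.7 by summits, 30.0 in joined domains, 32.9 and 34.9 with stronger PLT5 or H3K27me3 peaks, and 30.1 to 32.3 with 1 library left out. It was 17.4 when sites were ranked by fold and 1.40 when only domains of at least 1000 bp counted, both chosen after seeing the data. The median distance of other sites (12509 bp) was 11699 bp by summits, 12960.5 bp and 14827 bp with stronger PLT5 or H3K27me3 peaks, and 11079.5 to 12313 bp with 1 library left out. Without sites of fold under 2, also chosen after seeing the data, 46.6% were on a domain and the decile difference was 31.4.

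The coverage difference of plt345 and WT in domains with a site (−21.8 points) was between −17.7 and −21.8 under other overlap, joining and strength settings. It lay between −30.3 and −21.4 with 1 library left out; a single WT H3K27me3 library covers its own domains fully. With replicate pairs as a block the difference was the same −21.8 points (−22.2 and −21.4 within pairs, exact sign-flip p = 0.5, the smallest 2 pairs allow). Same-numbered libraries did not deviate together (r = −0.00812). With 2 libraries per group this cannot show whether the numbers pair them, and the labels do not say. Where values moved, the cause was not tested. Depth is unknown, and with 2 libraries per group the exact permutation test cannot pass 0.05.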

Other observations

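A small set of PLT5 sites stood apart in fold, a grouping chosen after the values were seen. At 18 of the 8781 sites (0.205%) the mean PLT5 fold was under 2, yet their median −log10 q was 13.1, above the 10.3 of the rest. All 18 were on an H3K27me3 domain, against 46.6% of the other sites. Their domains had a median width of 3084.5 bp and a median H3K27me3 fold of 1.56, against 1190.5 bp and 2.36 for the domains of the others. EMF2b was present at 15 of the 18 (83.3%, against 76.7% of the other sites) and H3K4me3 at 11 (61.1%, against 66.0%). By chromosome, 14 lay on chromosome 12, 2 on chromosome 1 and 2 on chromosome 9. Chromosome 12 held 451 of all 8781 sites.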
